A study of Homo sapiens with 74 samples.

Results

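The genes of peptide presentation by class I of the major histocompatibility complex (MHC) were followed in HEK293T, an established line from human embryonic kidney with the large T antigen of SV40. The 9 members were the heavy chain genes HLA-B, HLA-C, HLA-E, HLA-F and HLA-G, the light chain gene B2M, and TAP1, TAP2 and TAPBP, whose products load peptide onto the complex. They were taken by symbol from the 35248 symbols of an RNA table, where 9 of 9 were present. On the DNA side, the 37 bins of 100 kb that make up the MHC region (chromosome 6, hg38, the first starting at base 29700001) were taken by position from 28163 bins of chromosomes 1 to 22. The region holds 8 of the members in 7 of its bins, and B2M lies on chromosome 15 (chr15:44711517-44718145). From the start of the region, RefSeq (GRCh38.p14) places HLA-F at chr6:29723434-29738532, HLA-G at chr6:29826474-29831021, HLA-E at chr6:30489509-30494194, HLA-C at chr6:31268749-31272092 and HLA-B at chr6:31353875-31357179. TAP2 (chr6:32821831-32838739), TAP1 (chr6:32845209-32853704) and TAPBP (chr6:33299694-33314078) follow, and a gene was put in the bin that holds its midpoint. The rule goes by symbol and position, and it was set with earlier results of these data known.

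The study used DamID, in which the bacterial methylase Dam marks the adenine of GATC in the DNA it meets and DpnI then cuts at the marked sites. Dam was expressed by transient transfection, alone or joined to lamin B1 (LMNB1), a filament protein of the nuclear lamina, so that the joined form marks DNA at the nuclear edge. Dam was wild type (DamWT) or carried the V133A change (DamV133A). Single cells were processed one by one in a microfluidic device. RNA was sequenced in 8 libraries, 2 per group: cells given DamV133A-LMNB1, cells given DamV133A, cells given m6A-Tracer (a binder of methylated GATC) and untreated cells. Deep bulk DamID had 2 libraries each of DamV133A-LMNB1 and DamV133A. The variant libraries were shallower bulk DamID, 2 each of DamV133A-LMNB1, DamV133A, DamWT-LMNB1 and DamWT. The single cells were 15 with DamV133A-LMNB1 and 36 with DamV133A-tdTomato-LMNB1, set against 3 with DamV133A alone; the tdTomato cells formed a second batch, and batch and construct cannot be told apart. The labels give FuGene HD and 1 mM Shield-1 for 20 hours for every sample, the untreated RNA samples included. The share of cells that took up a plasmid was not given in the sources used here, and a bulk library mixes cells with and without it. Whether the libraries of a group stem from separate cultures is not in the labels, and the p-values therefore measure only the spread between these libraries, which may be technical.

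MHC class I molecules carry short peptides from inside the cell to its surface, where T cells and natural killer cells read them. A polymorphic heavy chain folds with beta-2 microglobulin, the product of B2M, in the endoplasmic reticulum, while the TAP1-TAP2 transporter pumps in peptides made by the proteasome and tapasin (TAPBP) holds empty class I molecules at the transporter. Cells other than blood cells express these genes at modest levels, and interferon gamma raises them together with NLRC5 and the immunoproteasome subunits PSMB8 and PSMB9.

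Promoter windows are shown for 4 members that changed in RNA, since class I promoters share short elements that interferon, NF-kappa B and CREB or NF-Y family factors are known to use. RefSeq (GRCh38.p14) gave windows of 300 bases, 250 before the start site and 50 from it on, for 8 of the 9 members (11 windows in all). The windows below read 5′ to 3′ on the gene's strand. Capitals mark matches, on either strand, to the ISRE core (GAAANNGAAA), the GAS core (TTCNNNGAA), the CRE core (TGACG), the CCAAT box and the kappa B site; matches may overlap.
HLA-B (chr6:31357130-31357429, minus strand): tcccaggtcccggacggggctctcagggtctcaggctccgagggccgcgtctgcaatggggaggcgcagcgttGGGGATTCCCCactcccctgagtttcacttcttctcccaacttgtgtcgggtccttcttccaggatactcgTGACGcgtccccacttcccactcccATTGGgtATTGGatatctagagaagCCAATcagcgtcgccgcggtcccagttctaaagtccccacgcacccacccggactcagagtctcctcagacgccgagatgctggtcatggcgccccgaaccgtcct
HLA-C (chr6:31272043-31272342, minus strand): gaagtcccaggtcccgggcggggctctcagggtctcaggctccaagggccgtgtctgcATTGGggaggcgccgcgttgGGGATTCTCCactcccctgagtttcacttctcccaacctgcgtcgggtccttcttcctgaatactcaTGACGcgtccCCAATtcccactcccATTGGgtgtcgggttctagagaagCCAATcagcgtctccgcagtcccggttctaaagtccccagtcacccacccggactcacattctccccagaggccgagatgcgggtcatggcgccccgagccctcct
B2M (chr15:44711267-44711566, plus strand): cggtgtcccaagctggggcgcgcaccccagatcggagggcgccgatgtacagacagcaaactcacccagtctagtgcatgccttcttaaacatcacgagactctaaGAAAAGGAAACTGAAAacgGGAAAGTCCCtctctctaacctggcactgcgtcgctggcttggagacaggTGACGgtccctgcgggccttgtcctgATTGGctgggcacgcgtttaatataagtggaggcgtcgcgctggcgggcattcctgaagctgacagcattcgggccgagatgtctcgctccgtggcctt
TAP1 (chr6:32853655-32853954, minus strand): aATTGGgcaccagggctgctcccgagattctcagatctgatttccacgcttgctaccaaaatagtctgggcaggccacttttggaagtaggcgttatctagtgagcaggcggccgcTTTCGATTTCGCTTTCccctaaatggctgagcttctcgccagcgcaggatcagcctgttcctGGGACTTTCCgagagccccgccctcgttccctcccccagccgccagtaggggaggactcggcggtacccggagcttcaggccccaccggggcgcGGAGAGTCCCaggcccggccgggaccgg
The HLA-B and HLA-C windows held kappa B matches, a CRE core starting at position -106 in HLA-B and -105 in HLA-C (counted from the start site), and CCAAT boxes in both directions. The B2M window held 2 overlapping ISRE cores, a kappa B match, a CRE core and an inverted CCAAT box. The TAP1 window held 2 overlapping ISRE cores on the opposite strand, 2 kappa B matches and an inverted CCAAT box at its far end. Over the 8 members with a window, the ISRE core was found in 5 (B2M, HLA-F, TAP1, TAP2 and TAPBP), the kappa B site in 5 (B2M, HLA-B, HLA-C, TAP1 and TAPBP), the CRE core in 4 (B2M, HLA-B, HLA-C and TAP2), the CCAAT box in 6 (TAP2 and TAPBP lacked it) and the GAS core in 1 (a second TAP1 window). Among all 35116 promoter windows of the table, 3.57% held the ISRE core, 5.91% the kappa B site, 24.55% the CRE core, 34.6% the CCAAT box and 7.66% the GAS core. A member was counted where any of its windows matched, while the percentages are of single windows. All of these are letter matches and not measured sites.

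RNA libraries held 39690886 to 51455298 estimated counts, and levels are given in CPM after TMM scaling, which sets each library's effective total equal. LMNB1, part of the construct, had 2547 and 2060.5 CPM in DamV133A-LMNB1 cells and 767 and 768 CPM in untreated cells. LMNB1 also stood at 250 and 253 CPM in DamV133A cells and at 251 and 257 CPM in m6A-Tracer cells, below untreated cells in both (log2 fold change -1.61 ± 0.09 and -1.60 ± 0.09, SE). Of 8 HEK293T markers (KRT8, KRT18, VIM, PAX2, LHX1, NEFL, NEFM and CDH2), 8 were detected, with a summed 973 to 1427 CPM. Of 16 markers of antigen-presenting and blood cells, 9 stayed under 1 CPM in every library, among them PTPRC (CD45), CD14, CD3E and CD74, and the list summed to 21.2 to 27.7 CPM.

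HLA-C, which encodes a classical heavy chain that also engages killer-cell receptors, had 305 and 382 CPM in DamV133A-LMNB1 cells, 260 and 253 CPM in DamV133A cells, 287 and 270 CPM in m6A-Tracer cells and 332 and 328 CPM in untreated cells. HLA-B, the most polymorphic classical heavy chain gene, had 148 and 184 CPM with DamV133A-LMNB1, 126 and 126 CPM with DamV133A, 142 and 134 CPM with m6A-Tracer and 157 and 153 CPM untreated. Both genes were lowest with DamV133A, and their m6A-Tracer libraries lay apart from the DamV133A and the untreated ones. The 2 DamV133A-LMNB1 libraries were far apart, 1.25-fold for each gene, and lay on both sides of the untreated levels.

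HLA-E, whose product shows leader peptides of other class I chains to natural killer cells, had 74.6 and 84.4 CPM in DamV133A-LMNB1 cells, 67.1 and 66.2 CPM in DamV133A cells, 70.4 and 64.3 CPM in m6A-Tracer cells and 75.4 and 71.4 CPM in untreated cells. HLA-F, a nonclassical heavy chain gene, had 13.9 and 17.0 CPM with DamV133A-LMNB1, 13.2 and 12.8 CPM with DamV133A, 14.3 and 13.1 CPM with m6A-Tracer and 17.6 and 18.0 CPM untreated. For HLA-E the DamV133A and m6A-Tracer libraries overlapped, and for HLA-F every transfected library lay below both untreated ones. HLA-G, the nonclassical heavy chain gene of placental trophoblast, was barely detected. It had 5 and 1.00 estimated counts with DamV133A-LMNB1, 1 and 3 with DamV133A, 0 and 4 with m6A-Tracer and 0 in both untreated libraries, where a count of 0 allows up to 0.0667 and 0.0714 CPM. It did not pass the low-count filter and was not tested, which left 8 members in the tests.

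B2M, the light chain gene, had 99.8 and 114 CPM in DamV133A-LMNB1 cells, 83.6 and 85.6 CPM in DamV133A cells, 91.2 and 90.7 CPM in m6A-Tracer cells and 98.1 and 104 CPM in untreated cells. It followed the order of HLA-B and HLA-C: lowest with DamV133A, then m6A-Tracer, with DamV133A-LMNB1 and untreated libraries overlapping at the top. TAP1, one chain of the peptide transporter, had 27.2 and 27.9 CPM with DamV133A-LMNB1, 20.2 and 21.0 CPM with DamV133A, 22.6 and 22.6 CPM with m6A-Tracer and 25.3 and 24.9 CPM untreated. Its 4 groups did not overlap, with DamV133A-LMNB1 highest. TAP2, the partner chain, had 37.1 and 34.8 CPM with DamV133A-LMNB1, 32.6 and 33.7 CPM with DamV133A, 34.2 and 32.5 CPM with m6A-Tracer and 37.8 and 37.1 CPM untreated. TAPBP, which encodes tapasin, had 16.6 and 17.3 CPM with DamV133A-LMNB1, 15.5 and 15.1 CPM with DamV133A, 15.7 and 14.0 CPM with m6A-Tracer and 18.8 and 18.9 CPM untreated. TAP2 and TAPBP were highest in untreated cells, and their DamV133A and m6A-Tracer libraries overlapped.

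**Figure D1:**
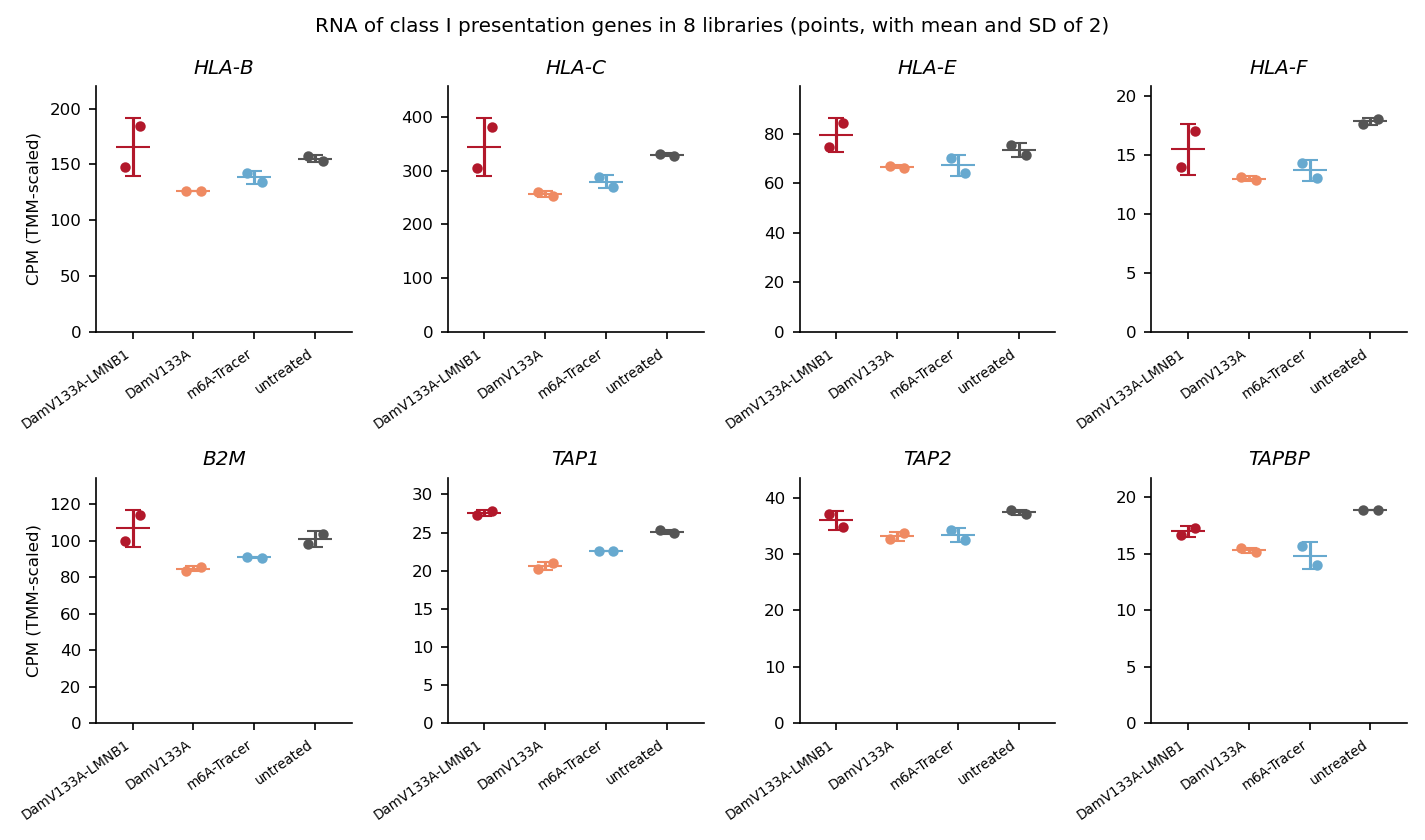
RNA level of the 8 tested members in CPM (vertical axis from 0) by group, with 1 point per library and the mean ± SD of 2 libraries. The DamV133A mean was the lowest for 7 members (TAPBP was lowest with m6A-Tracer), and the 2 DamV133A-LMNB1 libraries lay wide apart for HLA-B, HLA-C, HLA-E, HLA-F and B2M.

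The comparison of DamV133A with untreated cells asks what the untethered methylase and its transfection did to these genes. Most class I genes were lower with DamV133A. The heavy chain genes HLA-F (log2 fold change -0.46 ± 0.10, SE; adjusted p = 0.0133), HLA-C (-0.36 ± 0.09, 0.0213) and HLA-B (-0.30 ± 0.09, 0.0449) fell. B2M (-0.26 ± 0.07, 0.0302), TAP1 (-0.29 ± 0.06, 0.0112) and TAPBP (-0.30 ± 0.08, 0.0234) fell as well. The test was the quasi-likelihood test of edgeR, with p-values adjusted by Benjamini-Hochberg over 16843 genes. Thus 6 of 8 tested members fell and 0 rose, where 14.0% of the genes tested fell and 14.0% rose, 28.0% in all (2350 and 2362 genes; 1430 and 3459 with library totals in place of TMM). TAP2 (-0.18 ± 0.06, adjusted p = 0.0763) and HLA-E (-0.14 ± 0.08, adjusted p = 0.210) did not pass. The members' median log2 fold change was -0.29, against 0.01 over the genes tested. The DamV133A and untreated libraries did not overlap for 8 of 8 tested members, a pattern that 36.6% of the genes tested showed in this direction. Library totals moved the median of all genes to 0.10 and left 3 members called (HLA-C, HLA-F and TAP1). Summing the Ensembl IDs of a symbol entered these calls. With the name-table ID of each member alone, 2 were called (HLA-B and HLA-C). With every ID tested apart, those called, each of them lower, were 2 of 2 for HLA-C, 1 of 2 for B2M, 2 of 4 for TAPBP and 1 of 7 for HLA-F. The called HLA-F ID (-0.81) held 54.7% of its counts. The other HLA-F IDs ran from -2.81, with a mean of 11.0 counts, to 0.42. For TAP1 0 of 6 IDs passed, with log2 fold changes of -0.30 to -0.27, and the single ID of HLA-B had an adjusted p of 0.0511 (edgeR). The 6 TAP1 IDs had near-identical counts, as did the 2 called for TAPBP, so such IDs are not separate measurements. All of these calls were lost without either DamV133A or either untreated library. Every tested member kept a log2 fold change below 0 whichever library was left out. In a fit of the 4 compared libraries alone 8 members were called. There 4513 of 16302 genes tested were lower and 4270 higher, far more than in the main fit.

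m6A-Tracer cells, transfected with a protein that binds but does not place the mark, were set against untreated cells in the same way, and this comparison shares the untreated libraries with the one above. TAPBP fell (log2 fold change -0.35 ± 0.08, adjusted p = 0.0257, edgeR) and so did HLA-F (-0.38 ± 0.10, adjusted p = 0.0459). This is 2 of 8 tested members lower and 0 higher, against 5.35% of the genes tested lower and 8.44% higher, 13.8% in all (901 and 1421 genes; 521 and 2042 with library totals). The other 6 had log2 fold changes of -0.24 (HLA-C) to -0.12 (HLA-E), with adjusted p of 0.122 to 0.321, and none overlapped between the groups. The median of the tested members was -0.17, against 0.01 over the genes tested, and 33.5% of the genes tested were lower without overlap. Both calls were lost without any 1 of the untreated, m6A-Tracer or DamV133A libraries. In a fit of the 4 compared libraries alone 8 members were called. There 3687 of 16182 genes tested were lower and 3476 higher, far more than in the main fit.

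Cells with DamV133A-LMNB1 were compared with DamV133A cells. The groups differed in whether the methylase was joined to the lamina protein and also in LMNB1 RNA (log2 fold change 3.20 ± 0.09, SE). These differences cannot be told apart. Here class I genes were higher. TAP1 had a log2 fold change of 0.42 ± 0.06 (adjusted p = 0.0138), HLA-C of 0.42 ± 0.09 (0.0204), HLA-B of 0.39 ± 0.09 (0.0244), B2M of 0.34 ± 0.07 (0.0188) and HLA-E of 0.25 ± 0.08 (0.0459; edgeR, adjusted over all genes). These are the same DamV133A libraries as in the comparison with untreated cells. With 5 of 8 tested members higher and 0 lower, the background was 13.9% of the genes tested higher and 9.11% lower, 23.1% in all (2348 and 1535 genes; 1519 and 2659 with library totals). HLA-F (0.25 ± 0.10, adjusted p = 0.112), TAPBP (0.15 ± 0.08, 0.195) and TAP2 (0.12 ± 0.06, 0.208) did not pass. With library totals, or with name-table IDs alone, HLA-E was not called and 4 members were left. With every ID tested apart, all IDs of TAP1, HLA-C, HLA-B and B2M passed. For HLA-E 0 of 3 IDs passed, and for HLA-F 1 of 7 (0.69, the ID with most of its counts). The other HLA-F IDs ran from -0.48 to 3.35, the highest with a mean of 11.0 counts and not called. The 6 TAP1 IDs had near-identical counts, as did the 3 of HLA-E, so they are not separate measurements. The members' median was 0.30, against -0.02 over the genes tested (-0.10 with library totals). DamV133A-LMNB1 libraries lay above both DamV133A libraries for 8 of 8 tested members, as 32.2% of the genes tested did. The count was 0 in a fit of the 4 compared libraries alone, where 1 of 16471 genes tested was called. All calls were also lost without either DamV133A library. Fewer members were called without any 1 m6A-Tracer or untreated library and more without either DamV133A-LMNB1 library. Calls over all genes moved likewise. Every tested member kept a log2 fold change above 0 whichever library was left out.

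Between DamV133A-LMNB1 and untreated cells, 0 of 8 tested members passed the edgeR test, where 12.1% of the genes tested were higher and 8.54% lower, 20.7% in all (2042 and 1438 genes). Log2 fold changes ran from -0.21 ± 0.10 (HLA-F, adjusted p = 0.187) to 0.13 ± 0.06 (TAP1, adjusted p = 0.162), with 5 above and 3 below 0; the lowest unadjusted p was 0.062 and DESeq2 also called 0. The groups overlapped for HLA-B, HLA-C, HLA-E, B2M and TAP2. DamV133A-LMNB1 was above untreated without overlap for TAP1 (a pattern of 29.5% of the genes tested) and below it for HLA-F and TAPBP (29.4%). The 2 DamV133A-LMNB1 libraries gave different answers. Without replicate 1, 5 members had log2 fold changes above 0, and without replicate 2, 2 had. The log2 fold change of HLA-C was 0.06 ± 0.09 over both libraries and -0.11 without replicate 2.

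**Figure D2:**
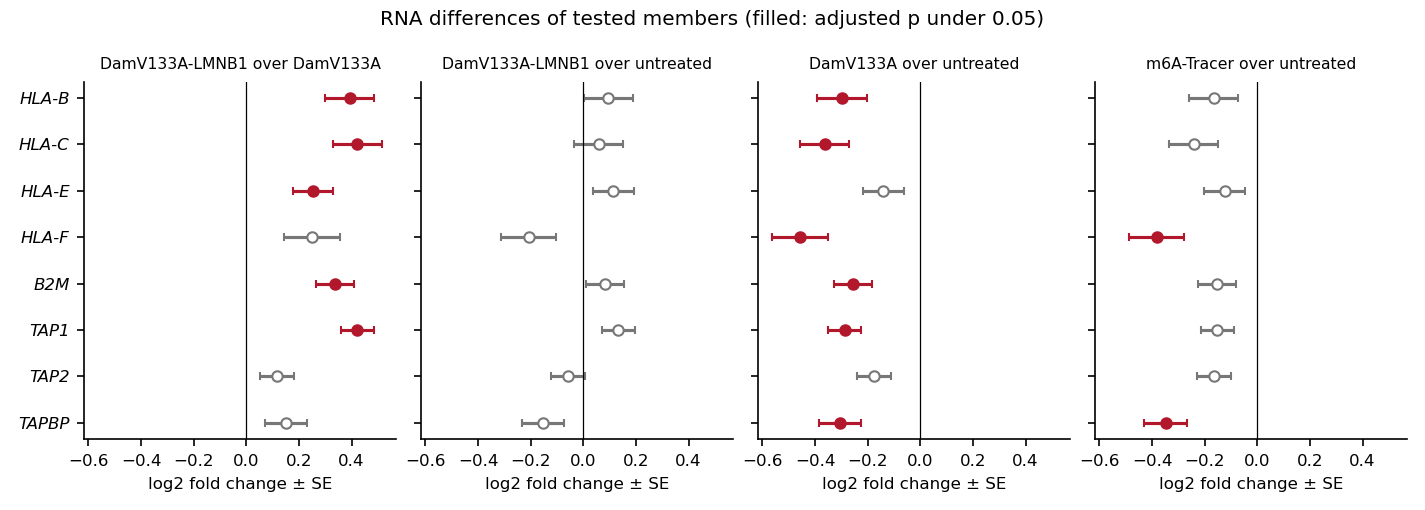
Log2 fold change ± SE of the 8 tested members in 4 RNA comparisons, with filled points where the adjusted p was under 0.05 (edgeR). Members lie right of 0 for DamV133A-LMNB1 over DamV133A (5 called), on both sides of 0 for DamV133A-LMNB1 over untreated (0 called) and left of 0 for DamV133A over untreated (6 called) and m6A-Tracer over untreated (2 called).

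Markers moved in the same comparisons. Of the 8 HEK293T markers, KRT8, KRT18, VIM and NEFL were higher with DamV133A-LMNB1 than with DamV133A, and VIM, NEFL, NEFM and CDH2 were lower with DamV133A than untreated. The 8 summed to 1084 and 1154 CPM in DamV133A-LMNB1 cells, 987 and 973 CPM in DamV133A cells, 1040 and 1033 CPM in m6A-Tracer cells and 1427 and 1391 CPM in untreated cells. Among the blood and antigen-presenting list, HLA-DPA1, an MHC class II chain gene in the same region, was higher with DamV133A-LMNB1 than with DamV133A (0.82) and lower with DamV133A than untreated (-0.78), HLA-DMB was lower with DamV133A than untreated (-0.56) and CD14, at under 1 CPM, was higher (1.55). The list summed to 26.2 and 26.7 CPM in DamV133A-LMNB1 cells, 21.9 and 21.2 CPM in DamV133A cells, 22.2 and 23.7 CPM in m6A-Tracer cells and 26.4 and 27.7 CPM in untreated cells. The 5 fibroblast markers, of which 3 stayed under 1 CPM in every library, summed to 27.5 and 29.6 CPM in DamV133A-LMNB1 cells, 28.3 and 28.8 CPM in DamV133A cells, 28.6 and 29.703 CPM in m6A-Tracer cells and 33.39 and 33.37 CPM in untreated cells. Of these, PDGFRA was lower with DamV133A than untreated (-0.77, adjusted p = 0.0497) and with DamV133A-LMNB1 than untreated (-1.16, adjusted p = 0.0170; edgeR). What part these shifts had in the members' values was not tested, and in bulk RNA fewer cells of a type and less RNA per cell cannot be told apart.

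Other genes of the pathway were read from a list of 53, of which 51 were tested. The immunoproteasome subunit genes were barely expressed: PSMB8 had at most 0.118 CPM in any library and was not tested, and PSMB9, next to TAP1 on chromosome 6, had 0.308 to 0.733 CPM. NLRC5, the transactivator of class I promoters, had 1.25 to 2.12 CPM and passed in no comparison. With DamV133A against untreated, 9 of 51 were lower and 5 higher, and the list's median log2 fold change was -0.04. HSPA5, the chaperone BiP of the endoplasmic reticulum, fell to 653 and 665 CPM in DamV133A cells, against 998 and 1001 CPM in untreated cells (-0.60 ± 0.05, adjusted p = 0.000109). PSME1, an activator subunit of the proteasome, had 28.6 and 26.5 CPM in DamV133A cells, against 42.0 and 42.7 CPM in untreated cells (-0.62 ± 0.09, adjusted p = 0.00191). PROCR, the class I-like endothelial protein C receptor (-0.57 ± 0.10, 0.00401), and PDIA3, the oxidoreductase of the peptide-loading complex (-0.28 ± 0.05, 0.00547; edgeR), were also lower. By role, 3 of 7 loading and folding genes, 2 of 10 peptide supply genes, 2 of 10 class I-like genes and 2 of 8 turnover genes were lower, and 4 of 16 transcription genes and 1 class I-like gene were higher. Of all genes tested, 14.0% were lower and 14.0% higher in this comparison. The 14 calls in all became 23 in a fit of the 4 compared libraries alone, where 4513 of 16302 genes tested were lower and 4270 higher. They became fewer without any 1 DamV133A or untreated library, as calls over all genes did.

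With m6A-Tracer against untreated, 7 of the 51 were lower and 3 higher (median 0.00), where 5.35% of the genes tested were lower and 8.44% higher. HSPA5 (-0.49 ± 0.05, adjusted p = 0.000533), PSME1 (-0.47 ± 0.09, 0.0118) and PROCR (-0.51 ± 0.10, 0.0125) were lower, and MICB, a stress-induced class I-like ligand of natural killer cells, was higher, with 11.2 and 12.5 CPM in m6A-Tracer cells, against 8.72 and 8.78 CPM in untreated cells (0.43 ± 0.09, 0.0164; edgeR). With DamV133A-LMNB1 against DamV133A, 8 were higher and 2 lower (median 0.03), where 13.9% of the genes tested were higher and 9.11% lower. MARCH1, a ubiquitin ligase of MHC class II and other surface proteins, was lower, with 2.07 and 1.56 CPM in DamV133A-LMNB1 cells, against 3.94 and 3.68 CPM in DamV133A cells (-1.06 ± 0.17, adjusted p = 0.0138). PSME1 (0.50 ± 0.09, 0.0148) and FCGRT, the class I-like receptor of immunoglobulin G (0.60 ± 0.11, 0.0153), were among those higher (edgeR). With DamV133A-LMNB1 against untreated, 4 were higher and 6 lower (median 0.01), where 12.1% of the genes tested were higher and 8.54% lower. The smallest adjusted p were those of HSPA5 (-0.51 ± 0.05, 0.000396), MARCH1 (-0.96 ± 0.17, 0.0065), MICB (0.46 ± 0.09, 0.0101) and NFYC, a subunit of the CCAAT-binding factor (0.29 ± 0.06, 0.0137; edgeR). For DamV133A-LMNB1 over DamV133A the count was 0 with the 4 compared libraries alone, where 1 of 16471 genes tested was called. In each of these comparisons, leaving out any 1 DamV133A, m6A-Tracer or untreated library lowered the count, and leaving out DamV133A-LMNB1 replicate 1 raised it. Calls over all genes moved in the same directions.

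The RNA pattern nearest to the members was sought among the other genes tested, by Pearson r over the 8 libraries to the mean of the members' centred log2 CPM. Among the closest were TRAP1, a mitochondrial chaperone (r = 0.999), ARPC1B, a subunit of the Arp2/3 complex (0.996), KLHDC3 (0.995) and CECR5 (0.995). TRAP1 had 446 and 514 CPM in DamV133A-LMNB1 cells, 379 and 375 CPM in DamV133A cells, 410 and 385 CPM in m6A-Tracer cells and 475 and 476 CPM in untreated cells. The members themselves had r of 0.768 (TAP2) to 0.983 (HLA-C) to a mean that includes them. With 8 libraries that share their scaling and 4 group means, these r values describe the order of the libraries only.

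Of the 143 protein-coding genes that RefSeq places in the MHC region, 139 were matched in the RNA table and 93 of these reached 1 CPM in both untreated libraries. The 104 tested genes of the region that are not members had 22 higher and 3 lower with DamV133A-LMNB1 against DamV133A (median log2 fold change 0.11), where 13.9% of all genes tested were higher and 9.11% lower. With DamV133A against untreated they had 17 higher and 16 lower (median -0.01), where 14.0% of all genes tested were higher and 14.0% lower. Beside these stand the members' own medians of 0.30 and -0.29 in the same comparisons. The difference between members and neighbours was not tested.

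The bulk DamID libraries (402171358 to 524019579 counts) measured how the MHC region lies relative to the lamina. It was depleted with the lamin fusion throughout. The region took 0.0587% and 0.0580% of the counts in the DamV133A-LMNB1 libraries, against 0.148% and 0.152% in the DamV133A libraries, a ratio of mean shares of 0.389. Of the 37 bins, 37 were lower and 0 higher (edgeR, adjusted p under 0.05), against a background of 36.2% of 27944 tested bins lower and 35.2% higher. Their log2 fold changes ran from -1.81 to -0.52 with a median of -1.13, against -0.06 over all bins and 0.50 over the other 1671 bins of chromosome 6. With library totals the medians were -1.39 for the MHC bins and -0.32 for all bins. The count of lower bins was 24 without DamV133A replicate 2 and 32 to 36 without any other single library. The authors' deposited marks put 8 of the 37 bins among the control inter-LAD bins, which lie away from the lamina, and 0 among the control LAD bins, which lie at it.

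The bins that hold members were 7 of 7 lower. The bin of HLA-F, the first of the region (from base 29700001), had 9.20 and 7.13 CPM in the DamV133A-LMNB1 libraries, against 28.2 and 29.0 CPM in the DamV133A libraries, and with -1.81 ± 0.28 it was the lowest of the region (adjusted p = 8.8e-06). The bin of HLA-E (from base 30400001) had 12.8 and 10.2 CPM with the fusion, against 34.6 and 41.1 CPM with DamV133A (-1.71 ± 0.25, adjusted p = 3.9e-06). TAP1 and TAP2 share a bin (from base 32800001) with 17.1 and 11.2 CPM, against 39.3 and 40.0 CPM with DamV133A (-1.48 ± 0.25, adjusted p = 2.3e-05). In each of these the groups were apart by more than the spread within them. The bin of HLA-G (from base 29800001) gave -0.98 ± 0.32, that of HLA-B (from base 31300001) -0.99 ± 0.27, that of HLA-C (from base 31200001) -0.79 ± 0.23 and that of TAPBP (from base 33300001) -1.10 ± 0.20, with adjusted p of 6.9e-05 (TAPBP) to 0.00913 (HLA-G). HLA-C, with 25.6 and 20.0 CPM in the DamV133A-LMNB1 libraries, against 34.1 and 44.6 CPM in the DamV133A libraries, was the least depleted member bin. B2M's bin on chromosome 15 (from base 44700001) was lower too, with 12.7 and 16.3 CPM in the DamV133A-LMNB1 libraries, against 30.7 and 24.0 CPM in the DamV133A libraries (-0.91 ± 0.26, adjusted p = 0.00405).

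Within the region the depletion varied. The 3 lowest bins were those of HLA-F and HLA-E and one that holds the class II genes HLA-DOA, HLA-DPA1 and HLA-DPB1 (from base 33000001, -1.75 ± 0.24). The 3 highest lay in the gene-dense class III stretch: the bin with TNF, LTA, LTB and MICB (from base 31500001, -0.52 ± 0.22), the one with the heat shock genes HSPA1A and HSPA1B (from base 31800001, -0.65 ± 0.22) and the one with BAG6 and AIF1 (from base 31600001, -0.68 ± 0.21). The 9 bins with 7 or more protein-coding genes had a median of -0.92, the 17 with 2 to 6 genes one of -1.22 and the 11 with at most 1 gene one of -1.19. Across the 37 bins, the log2 fold change correlated with the number of protein-coding genes (Pearson r = 0.428, Spearman rho = 0.389) and with log2 of the summed untreated CPM of the bin's genes plus 1 (r = 0.523, rho = 0.596); neighbouring bins share signal and these values are descriptive. Just outside the region, the bin before it (from base 29600001) had -0.43 ± 0.22 (adjusted p = 0.0868) and the bin after it (from base 33400001) -0.88 ± 0.25 (adjusted p = 0.00379).

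**Figure D3:**
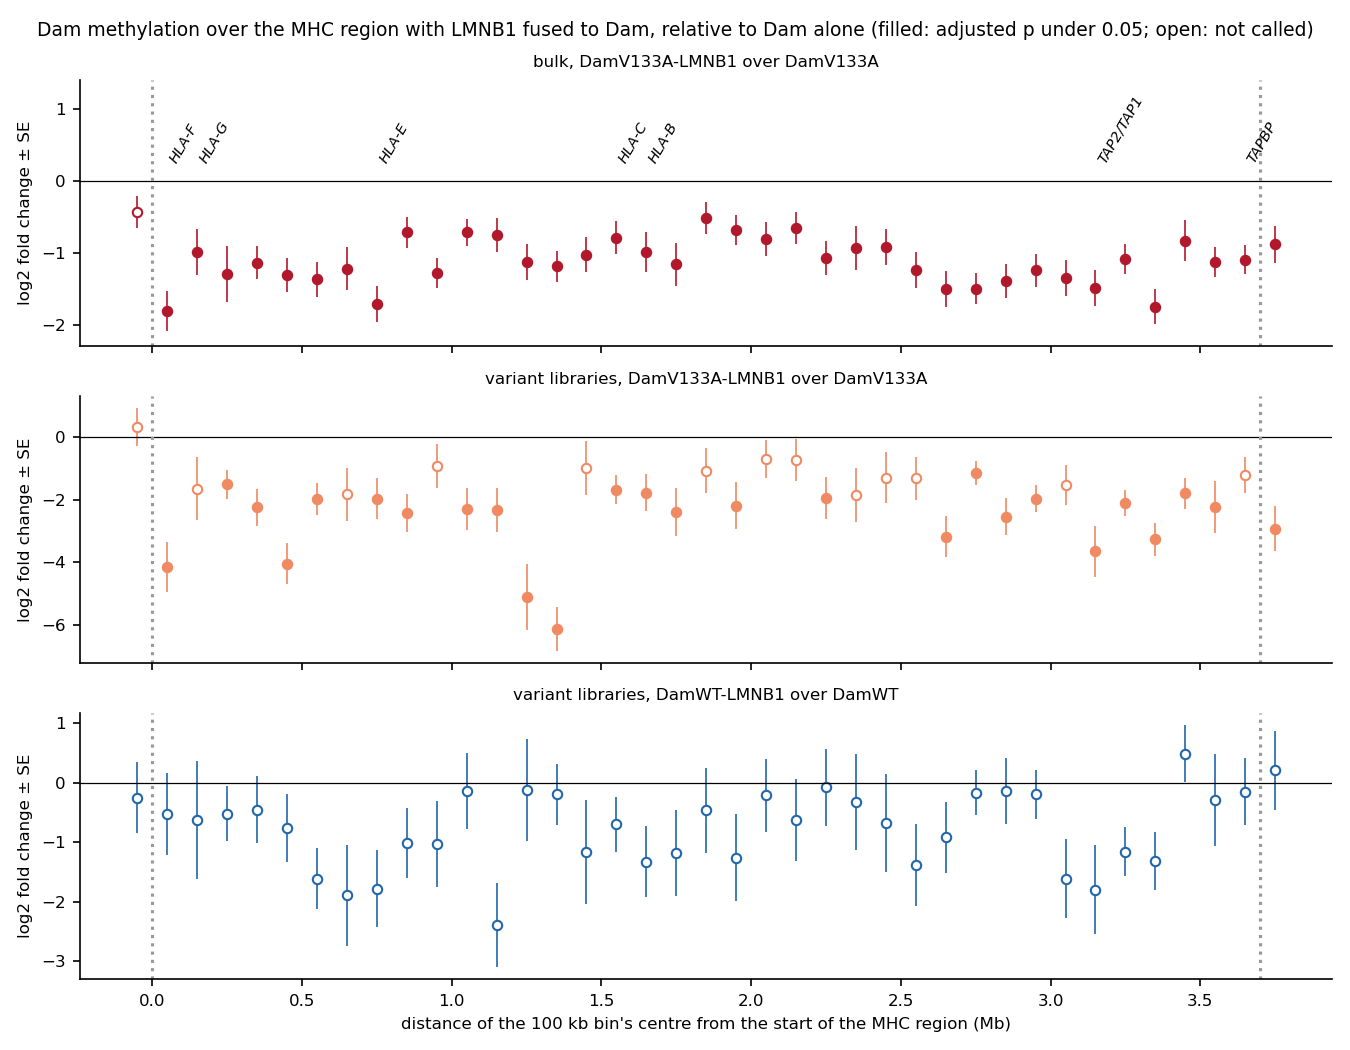
Log2 fold change ± SE per 100 kb bin against distance from the start of the MHC region, for bulk DamV133A-LMNB1 over DamV133A (top), and for DamV133A-LMNB1 over DamV133A (middle) and DamWT-LMNB1 over DamWT (bottom) in the variant libraries; dotted lines bound the region. Bulk values lie between -1.81 and -0.52 with 37 bins called lower, 25 are called lower in the middle panel and 0 in the bottom one.

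The variant libraries (3160747 to 10664435 counts) measured the same bins with both forms of Dam. With the V133A form the region took 0.0235% and 0.0231% of the counts in DamV133A-LMNB1 libraries, against 0.125% and 0.121% in DamV133A libraries. With wild-type Dam it took 0.0584% and 0.0635% in DamWT-LMNB1 libraries, against 0.122% and 0.114% in DamWT libraries. The ratio of mean shares was 0.190 for DamV133A and 0.515 for DamWT. In the DamV133A-LMNB1 libraries these counts fell on 236 and 229 of the region's 10596 DpnI fragments (9.0 and 8.8 counts each), in the DamV133A libraries on 1049 and 1052 (8.9 and 5.6), in the DamWT-LMNB1 libraries on 404 and 728 (14.7 and 4.1) and in the DamWT libraries on 1278 and 1149 (4.0 and 2.9).

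For DamV133A-LMNB1 over DamV133A, 25 of the 37 bins were lower and 0 higher (edgeR), where 23.7% of 28733 tested bins were lower and 27.0% higher (6797 and 7768 bins; 9570 and 5317 with library totals). The median log2 fold change of the MHC bins was -1.97, against -0.10 over all bins (-0.50 with library totals). Member bins were lower in 5 of 7: HLA-F had 0.38 and 3.09 CPM in DamV133A-LMNB1 libraries, against 23.3 and 38.8 CPM in DamV133A libraries (-4.16 ± 0.80, adjusted p = 0.00105), and TAP1 and TAP2 had 6.43 and 0.27 CPM, against 33.9 and 51.2 CPM (-3.65 ± 0.82, adjusted p = 0.00262). The bins of HLA-E (-1.97 ± 0.65), HLA-B (-1.78 ± 0.60) and HLA-C (-1.67 ± 0.47) were also called. Those of HLA-G (-1.65 ± 1.01, adjusted p = 0.181) and TAPBP (-1.21 ± 0.57, adjusted p = 0.0872), and B2M's bin (-1.77 ± 0.84, adjusted p = 0.0894), did not pass. The DamV133A-LMNB1 libraries differed widely from each other in single bins, such as HLA-G's with 0.25 and 14.6 CPM, against 17.0 and 29.71 CPM in the DamV133A libraries. The count of lower bins was 14 without DamV133A replicate 1, 12 without DamV133A replicate 2 and at most 27 without any other single library.

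For DamWT-LMNB1 over DamWT, 0 of the 37 bins passed in either direction (edgeR), where 0.212% of tested bins were lower and 2.42% higher (61 and 694 bins, or 22 and 31 with library totals). Of the 37, 9 had an unadjusted p under 0.05, as did 5970 of 28733 tested bins. DESeq2 called 5 of the 37 lower, where it called 930 of 29106 bins lower and 3061 higher. The median log2 fold change was -0.67 (all bins -0.01, moved to -0.17 by library totals), and 36 of 37 values were below 0. The bin of TAP1 and TAP2 had 9.91 and 15.7 CPM in DamWT-LMNB1 libraries, against 46.2 and 42.6 CPM in DamWT libraries (-1.80 ± 0.75, adjusted p = 0.189), and HLA-E's had 6.51 and 15.7 CPM, against 43.1 and 32.3 CPM (-1.78 ± 0.65, adjusted p = 0.137). TAPBP's bin had the smallest difference of the member bins (-0.15 ± 0.56). Some bins were called lower without DamWT-LMNB1 replicate 2 or either DamV133A-LMNB1 library, where more of all bins were called lower too.

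The test of whether the lamin fusion acted differently with the 2 forms of Dam called 1 of the 37 bins lower and 0 higher (edgeR interaction), against 0.358% of tested bins lower and 0.136% higher (103 and 39 bins; 233 and 19 with library totals, which moved the median of all bins to -0.26 where it was -0.02). The bin started at base 31000001, with the mucin gene MUC22 and no member. It had 0.50 and 0.40 CPM in DamV133A-LMNB1 libraries, against 29.3 and 37.0 CPM in DamV133A libraries, and 22.4 and 16.1 CPM in DamWT-LMNB1 libraries, against 21.7 and 22.8 CPM in DamWT libraries (difference of log2 fold changes -5.93 ± 0.85, adjusted p = 0.0449). Of the member bins, HLA-F's had the largest difference (-3.62 ± 1.03, adjusted p = 0.0861) and HLA-E's the smallest (-0.19 ± 0.89, adjusted p = 0.923). The call was lost without either DamV133A library, either DamWT library or DamWT-LMNB1 replicate 1, as were those of all other bins. More MHC bins were called without either DamV133A-LMNB1 library, where far more of all bins were called too.

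Single cells held 9526 to 348793 unique fragments. The MHC fragments of each cell were divided by the number expected from the share of the region in the summed bulk DamV133A libraries (0.150%), and intervals are exact Poisson 95% intervals that cover counting error only. Cells are not replicates of a culture, and no test was made. Most cells with a lamin fusion had few MHC fragments. The observed over expected ratio had a median of 0.260 (range 0.112 to 1.152) in 15 batch 1 DamV133A-LMNB1 cells, 0.319 (0.0870 to 1.48) in 36 batch 2 DamV133A-tdTomato-LMNB1 cells, and 1.14 (1.13 to 1.28) in 3 batch 1 DamV133A cells. The interval lay below 1 in 13 of 15 and 35 of 36 cells with a fusion and in 0 of 3 DamV133A cells.

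The highest fusion cell of each batch stood apart in its MHC ratio. In batch 1, cell 7 had 603 MHC fragments of 348792 (ratio 1.152, interval 1.06 to 1.25). Its ratio was 1.18 over the bins called higher with the fusion in bulk and 0.880 over those called lower outside the MHC region. Cell 12 of batch 1 had values close to these over the same classes (1.24 and 0.875), with an MHC ratio of 0.255. In batch 2, cell 35 had 65 of 29323 (1.48, interval 1.14 to 1.88), with 1.01 over both classes. In the other fusion cells the MHC ratio reached at most 0.652 in batch 1 and 0.668 in batch 2. Over the bins called higher, fusion cells had a median ratio of 1.97 in batch 1 and 1.60 in batch 2, against 0.734 in DamV133A cells. With all cells summed, the MHC ratio was 0.421 in batch 1, 0.294 in batch 2 and 1.17 in DamV133A cells. It was 0.248 in batch 1 without cell 7 and 0.287 in batch 2 without cell 35.

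**Figure D4:**
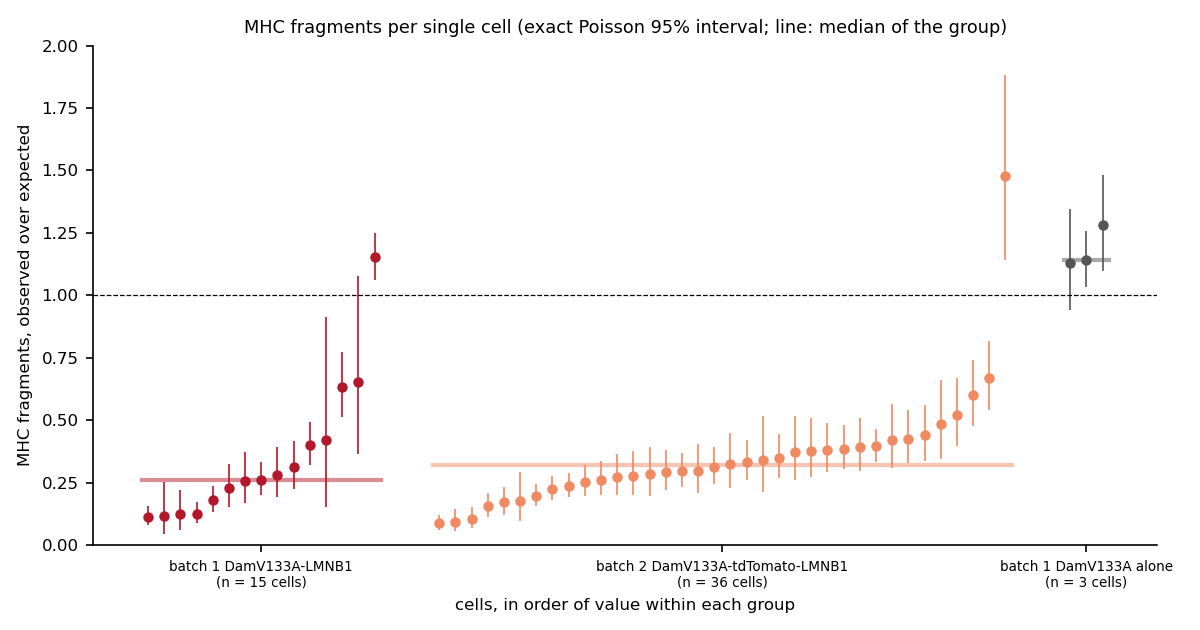
MHC fragments per cell divided by the number expected from bulk DamV133A, with exact Poisson 95% intervals, cells ordered by value and a line at each group's median. Fusion cells lie at 0.0870 to 0.668 except 1 cell per batch (1.152 and 1.48), and the 3 DamV133A cells lie at 1.13 to 1.28.

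Contact of a bin in a cell meant at least the number of fragments expected there from bulk DamV133A. In DamV133A cells, which lack the lamin fusion, it sets untethered Dam against its own bulk profile and does not measure contact with the lamina. Per MHC bin, a mean of 13.3% of batch 1 DamV133A-LMNB1 cells and 8.93% of batch 2 DamV133A-tdTomato-LMNB1 cells were in contact, against 51.4% of the 3 DamV133A cells. With every cell thinned to 10000 fragments (14, 36 and 3 cells left) these means were 12.5%, 12.3% and 33.3%. At that depth less than a single fragment was expected in each MHC bin, so any fragment counted as contact. The thinned means therefore give the share of cells with a fragment in the bin. For the bins called lower in bulk as a whole, unthinned, the means were 14.3%, 17.2% and 48.5% in the same groups, and for those called higher 59.8%, 62.3% and 28.1%. After thinning they were 13.5%, 16.5% and 35.0% for the bins called lower and 38.2%, 36.9% and 18.6% for those called higher. At a threshold of 2 times the expected number, unthinned, mean contact of the MHC bins was 4.14% and 2.48% in the fusion cells of batches 1 and 2, against 20.7% in DamV133A cells. The bin of TAP1 and TAP2 was contacted in 0 of 15, 0 of 36 and 0 of 3 cells, which allows a share of up to 20.0% of batch 1 and 8.33% of batch 2 fusion cells, and 7, 14 and 2 cells held a fragment there. HLA-E's bin was contacted in 1 of 15 and 6 of 36 fusion cells and 0 of 3 DamV133A cells, HLA-C's in 3, 5 and 2 cells, HLA-B's in 2, 3 and 1 cells, HLA-F's in 1, 5 and 2 cells, HLA-G's in 4, 7 and 2 cells and TAPBP's in 4, 4 and 3 cells of the same groups. B2M's bin was contacted in 2 of 15, 14 of 36 and 1 of 3 cells. The highest MHC bin reached 33.3% of batch 1 and 19.4% of batch 2 fusion cells.

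**Figure D5:**
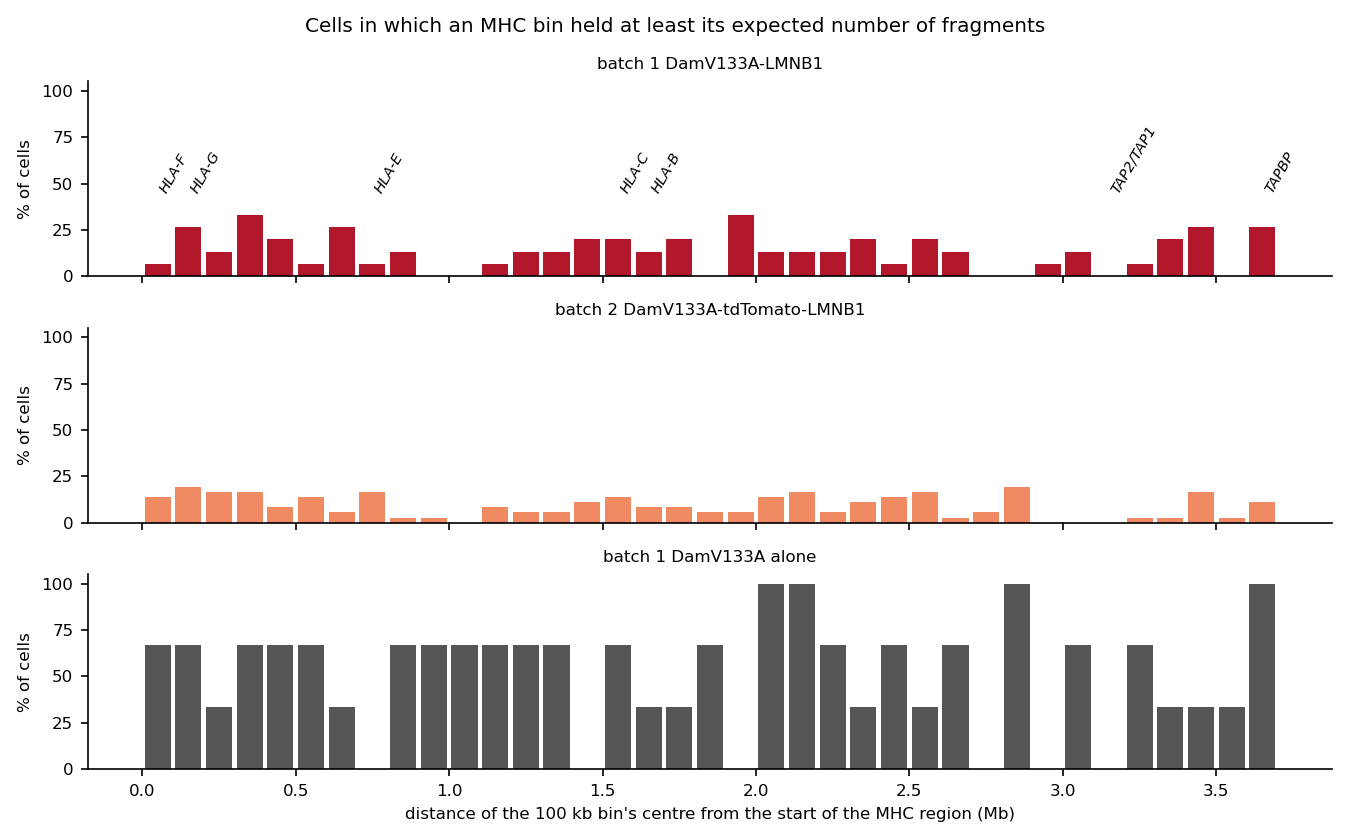
Percent of cells in which each of the 37 MHC bins held at least its expected number of fragments, by distance from the start of the region, in 15 batch 1 DamV133A-LMNB1 cells, 36 batch 2 DamV133A-tdTomato-LMNB1 cells and 3 batch 1 DamV133A cells. Fusion cells reach at most 33.3% and 19.4% in a bin, and with 3 DamV133A cells each step of the bottom panel is 1 cell.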

How the data were processed

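RNA, bulk DamID and single-cell DamID of 74 HEK293T samples in 13 groups were analysed from processed files. Per the labels' protocols, transfection used FuGene HD. Builds hg38 and GRCh38 and the tools Salmon, bedtools 2.28, SAMtools 1.9, BWA 0.7.15-r1140, Trimmomatic 0.39, limma and DESeq2 are listed, with no role, per the submitters' processing notes. The authors deposited estimated counts per gene for RNA, counts per 100 kb bin for bulk libraries and single cells (unique fragments in cells), counts per DpnI fragment for the variant libraries, and marks of control LAD and inter-LAD bins coded 0 or 1.

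The RNA table splits MHC genes over several Ensembl IDs: HLA-F has 7 IDs and 1.42% of its counts in the ID that the name table pairs with the symbol, TAPBP 5 and 0.938%. Estimated counts were therefore summed by symbol (39037 rows to 35248 symbols) and rounded, a step chosen after seeing the table. DpnI fragments were summed to 100 kb bins. Counts were tested with edgeR 4.0.16 (R 4.3.3; filterByExpr, TMM, glmQLFit, glmQLFTest, Benjamini-Hochberg adjusted p under 0.05), with 1 fit each over 8 RNA, 4 bulk and 8 variant libraries; fits were tested on simulated data. DESeq2 1.42.0 gave alternatives, and Python 3.11.15 the rest. HLA-E has 33.3% of its counts in its name-table ID and 3 IDs with a mean of at least 1 count. In single cells, observed fragments were divided by those expected from bulk DamV133A.

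Libraries were fitted by group without pairing. Named were the 9 members and LMNB1, per comparison up to 4 called genes of the related list with the smallest adjusted p, the member bins with the 3 highest and 3 lowest bulk bins, and the 5 genes nearest in pattern; HSPA1A, TNF and other genes of those bins are named for location only, and PSMB8, PSMB9 and NLRC5 were named after their values were seen. Some genes that this rule names are not reported here. Members and lists were chosen with earlier results of these data known.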

Additional observations from a re-analysis of the deposited data

Results flagged for a closer look

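The effect of the lamin fusion differed between the 2 forms of Dam in 1 bin of the MHC region, chromosome 6 from 31000001 to 31100000, by an edgeR interaction test. The log2 fold change was -6.13 ± 0.69 for DamV133A-LMNB1 over DamV133A and -0.20 ± 0.52 for DamWT-LMNB1 over DamWT, a difference of -5.93 ± 0.85 (adjusted p = 0.0449). The counts were 4 and 3 in DamV133A-LMNB1 libraries, against 256 and 212 in DamV133A libraries, and 231 and 80 in DamWT-LMNB1 libraries, against 106 and 79 in DamWT libraries. In the deep bulk libraries the same bin had a log2 fold change of -1.19 ± 0.22 for DamV133A-LMNB1 over DamV133A. With the replicate number added to the model, 0 of 28733 tested bins were called in either direction by this test, and this bin was not called. The cause of the difference was not tested.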

How the results depend on the processing

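Member calls in RNA depended on which libraries set the spread. In fits of the 4 compared libraries alone, 0 members were called for DamV133A-LMNB1 over DamV133A (5 in the fit of all 8 libraries) and 8 for m6A-Tracer over untreated (2 in that fit), while related genes called were 0, 1, 23 and 18 for DamV133A-LMNB1 over DamV133A, DamV133A-LMNB1 over untreated, DamV133A over untreated and m6A-Tracer over untreated (10, 10, 14 and 10 in that fit). Leaving out 1 library gave 0 to 6, 0 to 4, 0 to 8 and 0 to 8 members and 0 to 28, 1 to 24, 3 to 23 and 1 to 18 related genes in those 4 comparisons, and a lone library left in a group was assumed to vary like the others. HLA-C for DamV133A-LMNB1 over untreated ranged from -0.11 to 0.23 on the log2 scale. With library totals 3 members were called for DamV133A over untreated and 1 for m6A-Tracer over untreated, with name-table IDs 2 and 0. DESeq2 and each Ensembl ID apart called 1 member for m6A-Tracer over untreated, and 17 related genes were called for DamV133A-LMNB1 over DamV133A without the low-count filter. Same-numbered libraries did not deviate together (correlations of deviations -0.0220 to 0.0312), and the replicate block gave 4, 0, 5 and 1 members in the 4 comparisons, 6 related genes for m6A-Tracer over untreated and 0 MHC bins for the interaction.

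Of the MHC bins, leaving out 1 library gave 24 to 36 lower in bulk, 12 to 27 for DamV133A-LMNB1 over DamV133A and 0 to 4 for DamWT-LMNB1 over DamWT in the variant libraries, and 0 to 9 for the interaction. DESeq2 called 5 lower for DamWT-LMNB1 over DamWT and 9 for the interaction. Counting member bins alone gave 7 lower in bulk. For DamV133A single cells the median ratio was 1.30 with every bin weighted alike. Their mean contact was 20.7% at a threshold of 2 times the expected number. It was 33.3% after thinning, where any fragment in an MHC bin counted as contact. At the threshold of 2 times the expected number, fusion cells had 4.14% in batch 1 and 2.48% in batch 2. Of single genes and bins named, 626 and 390 values kept their side of the threshold, 121 and 29 lost the call and 32 and 14 gained one. Values called under neither setting count as kept even where their sign changed, and 1 gene's value changed sign with a call. For DamV133A-LMNB1 over untreated, 5 members lay above 0 in the main fit and 2 without DamV133A-LMNB1 replicate 2. The causes were not tested. With 2 libraries a group and 3 DamV133A cells, small differences were not detectable, and low counts limited single bins of the variant libraries.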
